A study of Mus musculus with 24 samples.

Results

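AMPK knockout (KO) mouse embryonic fibroblasts (MEFs) were compared with wild-type (WT) MEFs while both were exposed to MK-8722, a small molecule that activates AMPK directly. The comparison was made of the 4 libraries titled AMPK-KO MK8722 and the 4 titled Wild-type MK8722, out of 24 libraries in 6 groups of 4, and was described over all autosomal genes. Of the 55487 genes in the table, 50957 were autosomal, 15265 of these had enough counts to be tested, and 12722 of the tested genes were protein-coding. The same genotypes in DMSO, the vehicle, and in torin1, an inhibitor of the mTOR kinase, served to show which differences were already there without the activator. The KO cells lack both catalytic subunits of AMPK, encoded by Prkaa1 and Prkaa2, and every group was sequenced as poly(A) RNA from cultured cells with the same batch label. Each genotype was a single cell line. The WT libraries came from passages 12 to 15 and the KO libraries from passages 16 to 19, one library per passage in each treatment, so genotype, line and passage cannot be told apart in any KO against WT difference. The labels give neither the dose nor the hours of exposure.

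AMPK is a heterotrimeric kinase, with a catalytic α, a scaffolding β and a nucleotide-sensing γ subunit, that is switched on when cellular energy falls. Among its known substrates at the lysosome is FNIP1, the partner of folliculin (FLCN). FLCN and FNIP act on the RagC and RagD GTPases, which hold the transcription factors TFEB and TFE3 in the cytoplasm. When TFEB and TFE3 enter the nucleus they switch on genes of lysosomal enzymes, of the lysosomal proton pump and of autophagy, many of which carry the E-box CACGTG near their start.

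The 8 libraries held 26900240 to 33467698 estimated counts each, with RNA integrity numbers of 9.8 to 10.0, and log2 CPM (counts scaled to a library of 1000000) of replicates correlated at 0.9888 to 0.9977. The lines differed well beyond AMPK. Xist, the RNA of the inactive X chromosome, had 7816 to 10089 counts in the WT libraries and 1 to 3 in the KO libraries, whereas the Y-linked Ddx3y had 0 counts in WT and 5 to 23 in KO. The summed CPM of 12 fibroblast markers was 10600 to 14700 in WT and 5090 to 5790 in KO. Lum and Fap did not exceed 3 counts in any of the 8 libraries, and Col1a2, a type I collagen chain, was at 1770 to 3290 CPM in WT and 17.4 to 38.7 CPM in KO. Of the 9 fibroblast markers tested, Pdgfra was higher in KO (log2 difference 1.25) and S100a4 was not called (-0.14). The rest were lower in KO, from Fn1 (-0.69) to Col1a2 (-6.72). The summed markers of neural or glial cells were at 84.1 to 97.7 CPM in WT and 145 to 152 in KO, those of epithelial cells at 34.5 to 49.3 and 18.6 to 26.4, and those of endothelial cells, leukocytes, muscle cells, adipocytes and pluripotent cells at 8.22 CPM or less in every library. The members of a sum did not all go one way, as Krt19 was lower in KO (log2 difference -1.30) while Cdh1 (1.63) and Epcam (1.75) were higher, and Map2 was lower (-0.56) while Tubb3 (1.09) and Sox2 (0 to 2 counts in WT, 305 to 334 in KO) were higher. All these marker values are of the MK-8722 libraries. In DMSO the Tubb3 means were 81.5 ± 10.8 CPM in WT and 89.2 ± 5.54 in KO. That log2 difference of 0.13 was not called, so the Tubb3 part of the neural sum was not a difference called in both treatments. The part of the line features above in the results below was not tested. The WT library at passage 12 lay outside the range of its 3 replicates for genes such as Insig1 of the cholesterol list and Slc7a11 of amino acid stress. The counts of the ATF4 and cholesterol lists are given with and without that library. Those of the fatty acid list, which holds Scd2, and of the p53 list, which holds Cdkn1a and Trp53, are given only with it. The WT DMSO library at passage 12 lay on the same side, at 32.2 CPM for Insig1 and 40.8 for Slc7a11. Its replicates had 46.8 to 57.2 and 13.0 to 19.7 CPM.

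The targeted genes were still read in the KO cells. Prkaa1 (chr15:5143861-5181899, GRCm38), which encodes the α1 subunit, was at 80.6, 79.6, 84.5 and 80.2 CPM in the WT libraries and at 65.6, 70.5, 72.6 and 67.7 CPM in the KO libraries, each in order of passage as in all such series below. These groups did not overlap, but the KO against WT log2 difference of -0.23 (SE 0.048, edgeR adjusted p = 0.00012) was under the 1.2-fold minimum, and it was 0.03 once a trend with GC content and transcript length was removed. Prkaa2 (chr4:105029874-105109890), which encodes α2, was at 8.59, 6.19, 9.01 and 7.27 CPM in WT and 4.21, 3.23, 2.61 and 3.58 CPM in KO, a log2 difference of -1.19 (SE 0.19, edgeR adjusted p = 7e-06). Counts over a whole gene do not show whether its transcript encodes a kinase, so they check neither the deletion nor the label. Of 7 AMPK subunit genes tested, 2 were higher in KO and 3 lower under MK-8722, and the same counts held in DMSO. The higher ones were Prkag1, which encodes γ1, at 57.6 to 60.5 CPM in WT and 97.1 to 98.9 in KO, and Prkag3, whose log2 difference of 2.02 rests on mean levels of 0.0909 CPM in WT and 0.384 in KO. With only the libraries compared in the fit, 1 subunit gene was higher. Without a block, the only called interaction of these genes was that of Prkab1, which encodes β1 (0.43, SE 0.0709, edgeR adjusted p = 0.000189). The log2 difference of Prkab1 was 0.21 in MK-8722 and -0.22 in DMSO, both under the fold minimum. The interaction of Prkaa2, -0.62, had an edgeR adjusted p of 0.13, or of 0.0041 with passage as a block.

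Under MK-8722, 8990 autosomal genes differed between KO and WT, 58.9% of those tested, by edgeR's quasi-likelihood test at a Benjamini-Hochberg adjusted p below 0.05 and with at least a 1.2-fold change. The replicates were different passages of a line, so these p-values measure the spread between passages and not between independently made lines, and in bulk RNA fewer cells of a kind and less RNA per cell cannot be told apart. Of these 8990 genes, 4850 were higher in KO (31.8% of genes tested) and 4140 lower (27.1%). In DMSO the count was 8689, or 56.9%, with 4779 higher (31.3%) and 3910 lower (25.6%). The counts of every gene list are to be read beside these shares. Most of the difference under MK-8722 was thus one that DMSO showed too. The genes that differed in the same direction in both treatments numbered 7194, which is 80.0% of the MK-8722 list and 82.8% of the DMSO list. Across genes, which are not independent replicates, the KO against WT log2 differences in DMSO and MK-8722 had a Pearson r of 0.943. With library size as the only scaling, the median gene moved to 0.14 in MK-8722 and 0.16 in DMSO, from 0.03 and 0.02. The split of higher against lower genes was then 5936 against 2785 in DMSO and 5708 against 3288 in MK-8722. With the GC content and length trend removed it turned to 4128 against 4882 and 4308 against 4820.

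Whether the genotype difference itself depended on the activator was tested as an interaction, the KO against WT difference in MK-8722 minus that in DMSO. It passed the same thresholds for 1960 genes (12.8% of those tested), 790 of them positive (5.18%) and 1170 negative (7.66%). With this test the genes that differed under MK-8722 fell into classes. A group of 6409, or 71.3%, differed alike in DMSO and had no called interaction, with a median absolute log2 difference of 0.91 in MK-8722 and 0.89 in DMSO. In 584 genes the difference was in place in DMSO and grew (median absolute log2 difference 0.69 in DMSO and 1.24 in MK-8722), and in 201 it shrank. Another 584 genes, 6.5%, were not called in DMSO, were called in MK-8722 and had a called interaction, and are referred to as having appeared with the activator. These were lower in KO in 358 cases and higher in 226. A further 1158 genes were called in MK-8722 and not in DMSO without a called interaction, so their dependence on the activator was not resolved in this fit. With passage as a block within each genotype the interaction was called in more genes, 1167 positive and 1530 negative, and the classes were not rebuilt with it. In 54 genes the direction turned, and 360 genes that differed in DMSO were no longer called. The classes follow from the calls, so their counts describe the selection and are no test.

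**Figure D1:**
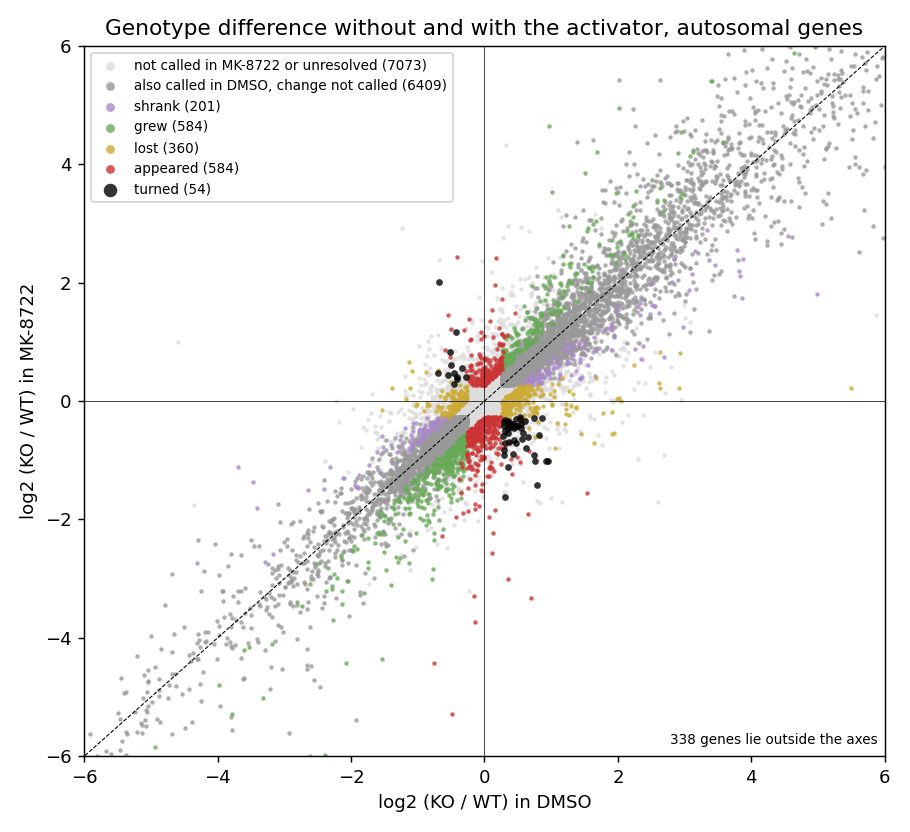
Each point is an autosomal gene, with its KO against WT log2 difference in DMSO on the horizontal axis and in MK-8722 on the vertical axis, coloured by class. Most genes lie along the diagonal, the 358 genes lower in KO that appeared with the activator hang below it near 0 on the horizontal axis, and 338 genes fall outside the axes.

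Genes that appeared with the activator and were lower in KO were mostly genes that stood higher with MK-8722 than with DMSO in WT. In WT, the mean level of 357 of the 358 was higher in MK-8722 than in DMSO, with a median log2 ratio of 0.44. In KO the median ratio was -0.05, with 114 means higher and 244 lower. The 226 genes that were higher in KO had the mirror pattern, since 224 of them stood lower in MK-8722 than in DMSO in WT (median log2 ratio -0.29) and 192 stood higher in KO (median 0.13). In the MK-8722 libraries the 4 WT and 4 KO values did not overlap for 338 of the 358 and 210 of the 226, beside 63.7% of all autosomal genes tested (64.2% in DMSO). These genes were chosen by calls in the same libraries, so their separation follows from the choice and is no separate evidence. A called interaction was part of the choice and favours opposite ratios in WT and KO. The ratios and counts of means above therefore describe the selected genes and are no test.

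Flcn, whose product relays lysosomal nutrient signals to TFEB together with the FNIP proteins, was among the genes that appeared. Flcn (chr11:59791408-59810016, minus strand) was at 70.5, 74.7, 69.5 and 72.3 CPM in WT and 29.8, 28.3, 27.2 and 29.5 CPM in KO. Every KO library of Flcn lay below every WT library. In DMSO the means were 32.2 ± 2.39 CPM in WT and 27.8 ± 0.659 in KO (SD, n = 4). The KO against WT log2 difference was -1.32 in MK-8722 (SE 0.077, edgeR adjusted p = 1.9e-13) and -0.21 in DMSO (edgeR adjusted p = 0.02, under the fold minimum), and the interaction was -1.11 (SE 0.11, edgeR adjusted p = 2.2e-07). Fnip1 (chr11:54438199-54518235) was at 71.6, 70.8, 76.7 and 67.2 CPM in WT and 25.6, 21.6, 23.1 and 22.2 in KO, a log2 difference of -1.63 against -0.36 in DMSO, with an interaction of -1.27 (SE 0.16, edgeR adjusted p = 4.4e-06). Its paralogue Fnip2 was at 59.6 to 64.4 CPM in WT and 14.6 to 16.7 in KO, with log2 differences of -1.97 and -0.97. Both FNIP genes thus differed in DMSO already, and the difference was larger with the activator.

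Of the 13 genes of the FLCN, FNIP, Rag, LAMTOR and MiT/TFE list that were tested, 7 were lower in KO under MK-8722 and 2 higher, against 3 and 2 in DMSO, and the 8 called interactions were all negative. Rragc, which encodes RagC, had log2 differences of -1.49 in MK-8722 and -0.49 in DMSO, and Lamtor1 and Lamtor3, subunits of the Ragulator scaffold, -0.42 and -0.61 in MK-8722 against -0.04 and -0.11. The 2 higher genes were Rragd, at 1.74 in MK-8722 and 3.86 in DMSO, and Tfeb. The RNA level of Tfeb does not show the activity of TFEB, which was not tested. Tfeb was at 6.65, 7.71, 8.02 and 7.93 CPM in WT and 10.6, 11.5, 12.3 and 12.1 CPM in KO, so that every KO library was above every WT library. The log2 difference of Tfeb was 0.62 (SE 0.099, edgeR adjusted p = 5.7e-06) in MK-8722 and 0.36 in DMSO, and the interaction of 0.26 had an edgeR adjusted p of 0.21, or of 0.038 at 0.27 with passage as a block.

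Lysosomal enzyme genes also included many whose difference came with the activator. Hexa (chr9:59539540-59565109), the α subunit of β-hexosaminidase A, was at 104, 96.5, 93.2 and 92.6 CPM in WT and 40.4, 38.9, 41.8 and 39.8 CPM in KO. In DMSO both lines stood near the KO level, at 37.0 ± 3.07 and 38.9 ± 2.22 CPM (SD, n = 4). The log2 difference of Hexa was -1.26 in MK-8722 (SE 0.085, edgeR adjusted p = 2.5e-12) and 0.07 in DMSO (edgeR adjusted p = 0.47), with an interaction of -1.33 (SE 0.12, edgeR adjusted p = 8.4e-08). Ctsa (chr2:164832873-164841032), which encodes the protease that protects neuraminidase and β-galactosidase, was at 204, 226, 207 and 193 CPM in WT and 108, 108, 110 and 106 in KO. The KO libraries of Ctsa lay close together and below all WT libraries. The Ctsa difference was -0.94 (SE 0.061, edgeR adjusted p = 1.2e-12) in MK-8722 and -0.00 in DMSO, where the means were 109 ± 8.07 in WT and 109 ± 1.22 in KO, and its interaction was -0.94 (SE 0.086, edgeR adjusted p = 8.4e-08).

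**Figure D2:**
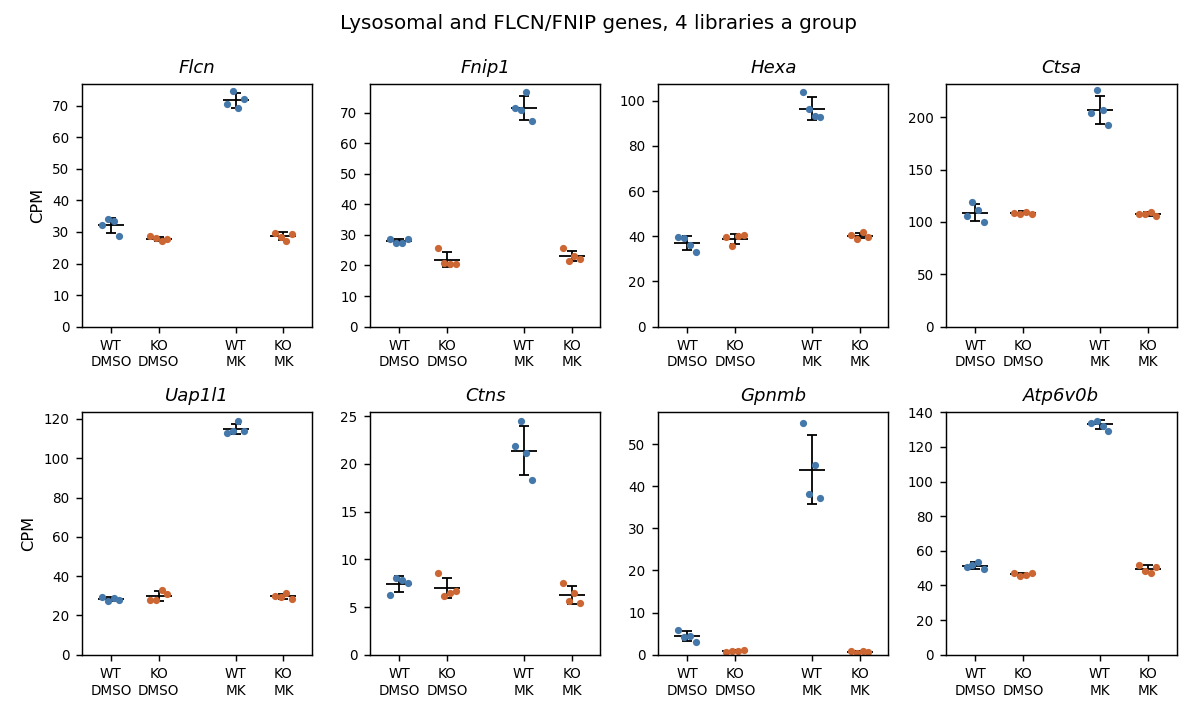
Points are single libraries of WT and KO MEFs in DMSO and MK-8722, in CPM on the vertical axis, with group means and SD as bars. The genes named above the panels are of the FLCN and lysosome lists, except Uap1l1, which is on none of the lists. In MK-8722 the 4 WT libraries stand above the 4 KO libraries in each panel, as at Hexa with 92.6 to 104 against 38.9 to 41.8 CPM. For Uap1l1 and Ctns this was a condition of their choice.

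Of 42 lysosomal hydrolases and activators tested, 28 were lower in KO and 7 higher under MK-8722 with a median log2 difference of -0.62, beside a median of 0.03 over all autosomal genes. In DMSO 13 were lower and 10 higher, with a median of 0.01. The interaction was called in 25, all of them negative. Members of the group include the acid α-glucosidase gene Gaa (-0.60 in MK-8722, 0.09 in DMSO) and the tripeptidyl peptidase gene Tpp1 (-0.71 and 0.25). The sialidase gene Neu1 turned from 0.75 in DMSO to -0.92 in MK-8722. Some enzyme genes differed as much in DMSO. Ctsz, a cathepsin, was at 82.9 to 91.0 CPM in WT and 0.258 to 0.681 in KO, at a log2 difference of -7.40 that was -7.10 in DMSO, and Ctsc was higher in KO by 2.84 and 2.93.

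Lysosomal membrane proteins followed the same direction, with 19 of 24 lower in KO and 3 higher under MK-8722 against 7 and 6 in DMSO, and 16 called interactions, all negative. Ctns, the cystine exporter, was at 21.9, 24.5, 21.1 and 18.3 CPM in WT and 7.55, 5.59, 6.47 and 5.42 in KO, a log2 difference of -1.78 against -0.08 in DMSO. Npc1, which carries cholesterol out of the lysosome, was at 91.2 to 95.8 CPM in WT and 25.9 to 28.2 in KO (-1.79 and -0.69 in DMSO). Gpnmb, a glycoprotein of lysosomes and melanosomes, was at 54.9, 38.2, 45.1 and 37.2 CPM in WT and 0.782, 0.387, 0.901 and 0.681 in KO. Its difference grew from -2.39 in DMSO to -5.98 in MK-8722 (SE 0.37, edgeR adjusted p = 5.1e-13). The calcium channel gene Mcoln1 stood at -1.18 and -0.12, and Lamp1 at -1.03 and -0.57.

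The vacuolar ATPase, the pump that acidifies the lysosome, was likewise lower in KO. Of 15 subunit genes tested, 11 were called under MK-8722 and all of these were lower in KO, whereas in DMSO 1 was lower and 6 were higher, and the 13 called interactions were all negative. Atp6v0b (chr4:117884326-117887333, minus strand), a subunit of the membrane sector, was at 134, 135, 132 and 129 CPM in WT and 51.8, 48.1, 47.3 and 50.7 in KO, a log2 difference of -1.42 (SE 0.073, edgeR adjusted p = 1.9e-14) against -0.15 in DMSO. Atp6v1h differed by -1.14, and by -0.26 in DMSO. The stalk subunit gene Atp6v1d went from 0.42 in DMSO to -0.90. Tcirg1, which encodes an osteoclast and lysosome subunit of the membrane sector, stood at 0.26 in MK-8722, short of the fold minimum, and at 0.63 in DMSO.

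Autophagy genes were more mixed. Of 39 tested, 16 were lower in KO and 8 higher under MK-8722, against 9 and 12 in DMSO, with a negative interaction in 15 and a positive one in 2. The members lower in KO with a negative interaction included the ubiquitin-like Map1lc3b (-0.76 in MK-8722, -0.06 in DMSO), Gabarap (-1.01 and -0.51) and Gabarapl1 (-0.95 and -0.26), and the cargo receptor gene Sqstm1 (-0.53 and 0.35). The ULK kinase complex genes Rb1cc1, at 163 to 221 CPM in WT and 62.5 to 65.1 in KO, and Ulk2, at 47.8 to 55.7 and 20.9 to 26.1, also had negative interactions. Rb1cc1 differed by -1.58 in MK-8722 and -0.98 in DMSO, and Ulk2 by -1.24 and -0.88. The receptor gene Optn was higher in KO by 0.90 in MK-8722 and by 1.72 in DMSO, so its difference shrank (interaction -0.82). The lipid transfer gene Atg2a was higher by 0.83 and 0.89, without a called interaction. The 8 higher members became 4 after removal of the GC content and length trend and 5 without the KO MK-8722 library at passage 16.

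**Figure D3:**
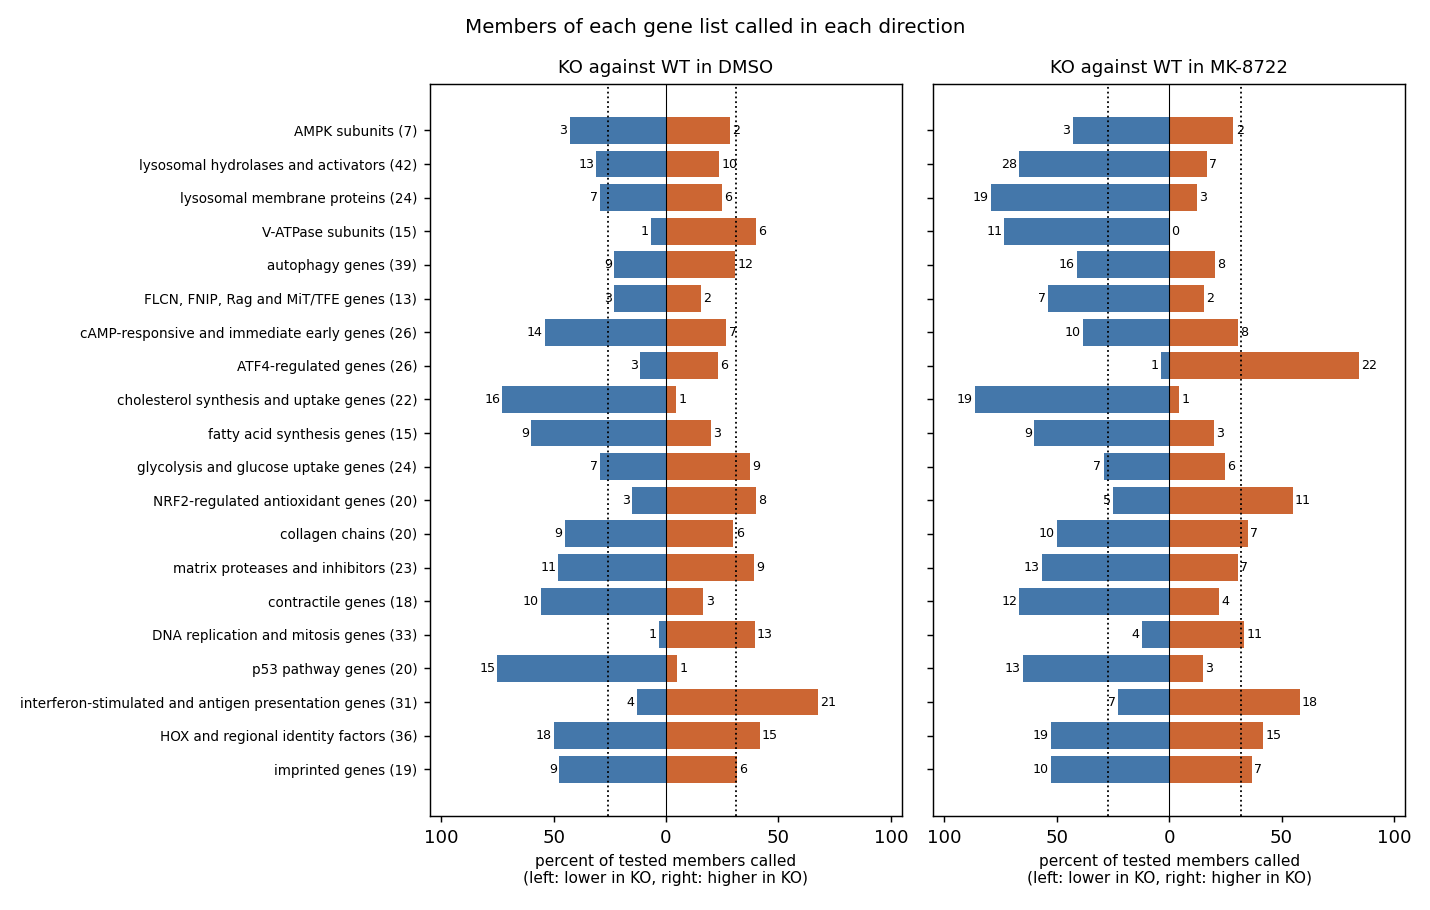
For each gene list (rows, with the number tested) the bars give the percent of members called higher (right) and lower (left) in KO than in WT in DMSO and MK-8722, with the member counts at the bar ends and the share of all autosomal genes as dotted lines. The lysosomal and V-ATPase lists shift toward lower in MK-8722 and the ATF4 list toward higher (22 of 26 members).

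Because the lysosomal genes carry a known E-box, promoter windows of 300 bases from RefSeq (GRCm38.p6, 250 bases before to 50 after each start) were searched for CACGTG and for the 8-base TCACGTGA that contains it. Both are palindromes, so a match stands on both strands. CACGTG was in 7.15% of all 32851 windows and 9.69% of the 13359 windows of tested autosomal genes. Windows were found for 270 of the 358 genes that appeared with the activator and were lower in KO, and 20.2% of these windows (72 of 356) held it, beside 11.7% (27 of 230) for the genes that were higher, of which 178 of 226 had a window. The shares for TCACGTGA were 0.974% of all windows, 1.7% of tested genes' windows, 6.18% (22 of 356) and 0.435% (1 of 230). By list, TCACGTGA was in 6 of 24 windows of lysosomal membrane genes, 3 of 14 of V-ATPase genes and 2 of 37 of hydrolase genes. It was in 0 of 16 windows of the FLCN, FNIP, Rag and MiT/TFE list. CACGTG was not particular to lysosomal lists, as 4 of 17 cholesterol, 5 of 24 p53 and 6 of 30 cAMP windows held it. Hydrolase genes had it in 10 of 37 windows, and the NRF2 and collagen lists in 0 of 19 each. These are descriptions of letters and not of bound sites, and genes without a match, such as Hexa and Ctns, lack only those letters in that window. The stretches below show the motif in genes whose values are given here, in the direction of transcription, with the motif in capitals: TCACGTGA in Ctsa (chr2:164833743-164833772, plus strand), CACGTG in Fnip1 (chr11:54438049-54438178, plus), Atp6v0b (chr4:117887330-117887459, minus) and Crebrf (chr17:26715520-26715649, plus). The first CACGTG of Crebrf lies within a TCACGTGA.
Ctsa: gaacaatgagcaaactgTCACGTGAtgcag
Fnip1: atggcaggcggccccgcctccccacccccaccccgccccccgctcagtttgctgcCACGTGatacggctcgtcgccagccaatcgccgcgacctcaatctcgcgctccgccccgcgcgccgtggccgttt
Atp6v0b: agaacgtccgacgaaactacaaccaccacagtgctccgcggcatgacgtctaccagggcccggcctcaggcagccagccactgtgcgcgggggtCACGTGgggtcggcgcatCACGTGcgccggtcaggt
Crebrf: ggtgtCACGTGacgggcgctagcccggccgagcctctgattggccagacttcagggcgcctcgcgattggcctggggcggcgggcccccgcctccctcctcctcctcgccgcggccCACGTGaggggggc

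Flcn carries a different palindrome, the full cAMP response element TGACGTCA, which was in 1.79% of all windows and 3.03% of those of tested autosomal genes. The share was 2.53% for the genes that appeared with the activator and were lower in KO, and 4.35% for those that were higher. It is shown because Flcn was among the genes whose difference appeared with the activator (chr11:59810040-59810169, minus strand), and on the opposite strand this stretch overlaps an exon of the antisense gene Gm16062.
Flcn: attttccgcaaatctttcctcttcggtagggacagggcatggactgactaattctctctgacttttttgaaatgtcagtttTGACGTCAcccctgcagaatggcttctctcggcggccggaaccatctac

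Genes that answer to cAMP and immediate early genes showed no common direction. Of 26 tested, 8 were higher and 10 lower in KO under MK-8722, and 7 higher and 14 lower in DMSO, with a positive interaction in 9 and a negative one in 3. After removal of the GC content and length trend 5 were higher. The full element TGACGTCA was in 3 of 30 windows of this list. Pde4b (chr4:102087543-102607259), a phosphodiesterase that degrades cAMP, had the largest interaction of the list. It was at 0.877, 0.973, 0.831 and 1.02 CPM in WT and 23.2, 23.5, 23.7 and 22.8 CPM in KO, whereas in DMSO the means were 11.7 ± 1.88 and 22.7 ± 1.34 (SD, n = 4). The log2 difference of Pde4b was 4.65 (SE 0.14, edgeR adjusted p = 7.4e-19) against 0.96 in DMSO, with an interaction of 3.69 (SE 0.18, edgeR adjusted p = 3e-12). Its paralogue Pde4d stood the other way, at 28.8 to 43.2 CPM in WT and 6.36 to 7.5 in KO, and did so in DMSO too (-2.43 and -2.20).

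Genes whose difference turned with the activator included further regulators of growth and stress. Klf2 (chr8:72319033-72321656), a zinc finger transcription factor, was at 4.97, 3.46, 3.13 and 3.18 CPM in WT and 14.5, 14.5, 16.2 and 14.5 CPM in KO, while in DMSO WT was the higher at 23.4 ± 2.32 against 14.6 ± 2.34 (SD, n = 4). The log2 difference of Klf2 went from -0.68 to 2.01, an interaction of 2.7 (SE 0.26, edgeR adjusted p = 1.9e-07). Rhob, a small GTPase, went from -0.42 to 1.16 and Ddit4, an inhibitor of mTORC1 signalling, from -0.51 to 0.83. The KO means in MK-8722 and DMSO were close to each other for Klf2, at 14.9 and 14.6 CPM. The opposite turn was seen in Crebrf (chr17:26715650-26776635), a regulator of CREB3 factors, which was at 22.8, 20.6, 19.8 and 19.8 CPM in WT and 9.27, 6.17, 8.27 and 7.23 in KO, against 5.4 ± 0.398 and 9.29 ± 0.721 CPM in DMSO. Crebrf went from 0.78 to -1.42, Klhl24 from 0.31 to -1.62 and Eno2, the neuronal enolase, from 0.75 to -1.02. A difference was lost in Slc27a1, a fatty acid transporter that was 1.78 higher in KO in DMSO and at -0.20 (SE 0.097, edgeR adjusted p = 0.071) in MK-8722, and in Rbm47, an RNA-binding protein that was 1.53 lower in KO in DMSO and at -0.15.

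**Figure D4:**
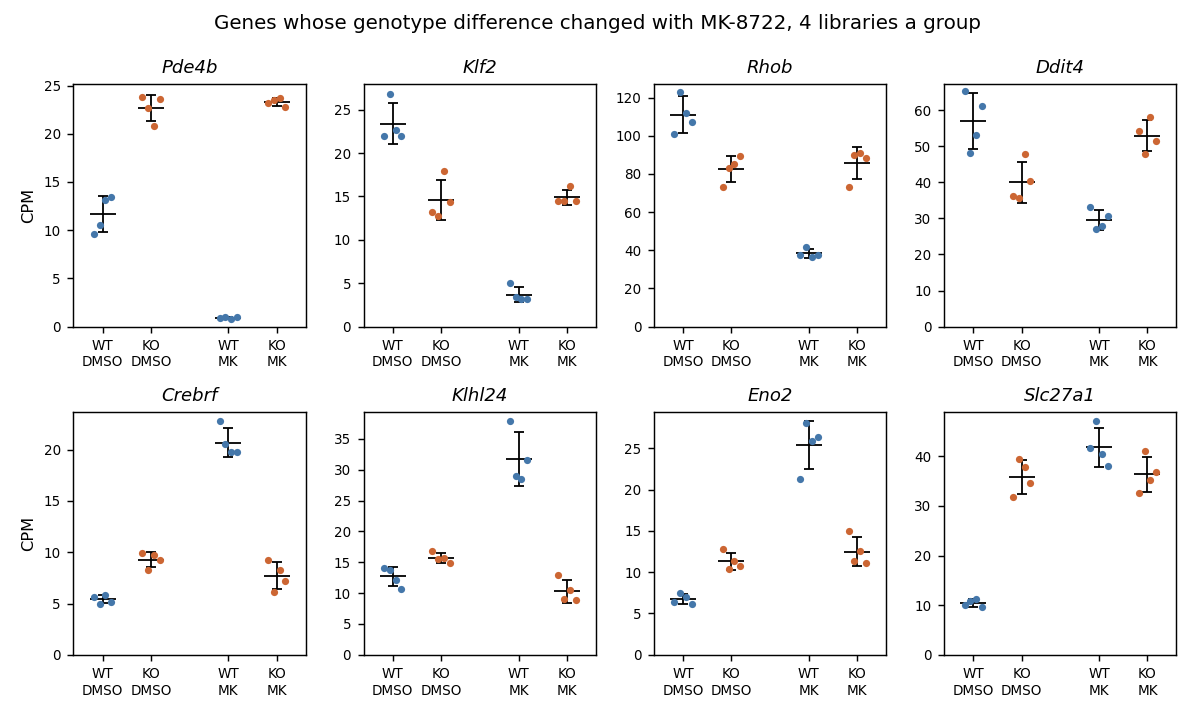
Points are single libraries of WT and KO MEFs in DMSO and MK-8722, in CPM, for Pde4b, whose KO against WT difference grew with the activator, and for genes in which it turned or was lost, with group means and SD as bars. At Klf2 the WT libraries lie above the KO libraries in DMSO and below them in MK-8722 (3.13 to 4.97 against 14.5 to 16.2 CPM). No overlap in DMSO was a condition for choosing the genes that turned or were lost.

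Genes regulated by ATF4, the factor of the amino acid and unfolded protein stress responses, were mostly higher in KO with the activator. Of 26 tested, 22 were higher and 1 lower under MK-8722 with a median log2 difference of 0.69, against 6 higher and 3 lower in DMSO (median 0.20), and the 12 called interactions were all positive. Atf4 itself had 0.70 in MK-8722 and 0.24 in DMSO. The serine synthesis genes Psat1 and Psph had 0.94 and 1.12 (0.27 and 0.33 in DMSO), the amino acid transporter genes Slc7a5 and Slc3a2 0.97 and 0.86 (0.24 and 0.33), and Chac1, which degrades glutathione, 1.23 (0.45). Sesn2, a leucine sensor upstream of mTORC1, was at 78.6, 55.1, 50.7 and 52.2 CPM in WT and 138, 123, 150 and 144 CPM in KO, a log2 difference of 1.23 (SE 0.12, edgeR adjusted p = 3.3e-09) against 0.22 in DMSO. The lower member was Ddit3, which encodes the transcription factor CHOP, at 42.7 to 61.7 CPM in WT and 14.7 to 25.6 in KO. The WT library at passage 12 was nearest to KO for Sesn2 and for the cystine transporter gene Slc7a11, at 28.6 CPM where the other WT libraries had 8.21 to 11.4 and KO had 42.6 to 68.5. Without that library 25 members were higher and 1 lower.

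Cholesterol synthesis and uptake genes were lower in KO in both treatments. Of 22 tested, 19 were lower and 1 higher under MK-8722 with a median of -1.19, against 16 and 1 in DMSO with a median of -0.57, and the interaction passed for 3 genes, all negative. They included Sc5d, a sterol desaturase (-1.31 in MK-8722, -0.69 in DMSO), and Insig1, which retains the SREBP complex in the endoplasmic reticulum. Insig1 was at 42.4, 127, 109 and 111 CPM in WT and 12.2, 14.8, 15.3 and 16.3 in KO, with log2 differences of -2.73 and -1.14. The passage 12 library was the lowest of WT for Insig1, yet above all KO libraries, and 20 members were lower without it. Hmgcs1, an early synthase of the pathway, had -1.67 and -0.70. The median interaction over the cholesterol list was -0.56, in the fit without passage as a block. No count of called interactions with that block is given for this list. The higher member, Tm7sf2, a sterol reductase, had 0.47, and 0.15 after removal of the GC content and length trend, which ended its call. Of 15 fatty acid synthesis genes, 9 were lower and 3 higher in both treatments. Scd1, the desaturase of saturated fatty acids, was at 136 to 230 CPM in WT and 107 to 125 in KO (-0.76 and -0.81).

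Outside these lists, genes that appeared with the activator covered several kinds of protein. Uap1l1, a paralogue of the enzyme that makes UDP-N-acetylglucosamine, was at 113, 114, 119 and 114 CPM in WT and 28.4 to 31.5 CPM in KO, with an interaction of -2.02 (SE 0.16, edgeR adjusted p = 2e-08). In DMSO its means were 28.5 ± 0.898 and 29.9 ± 2.5 CPM. The GDNF receptor gene Gfra1 was at 15.8, 8.53, 8.75 and 7.85 CPM in WT and 1.62, 2.36, 1.74 and 2.93 in KO, and Timp3, an inhibitor of matrix metalloproteinases, at 270, 682, 426 and 380 CPM against 141, 185, 222 and 231. The WT values of both genes were spread widely. That they did not reach the KO values was a condition for naming these genes. The interferon-induced Ifit1 (-1.85 in MK-8722, -0.25 in DMSO), Klhl30 (-1.73 and -0.14) and the RAS-induced membrane protein gene Tmem158 (-1.41 and -0.04) were lower as well. Higher in KO were Etv5, an ETS transcription factor, at 43.2, 34.4, 30.4 and 28.2 CPM in WT and 70.6, 73.9, 73.3 and 72.5 in KO (1.09, and -0.01 in DMSO), and Tubb3, a neuronal β-tubulin, at 42.7 to 51.0 and 94.1 to 104 CPM (1.09 and 0.13). The semaphorin gene Sema7a (1.03), the branched-chain aminotransferase gene Bcat1 (0.77), Glipr2 (0.59), Sipa1l2 (0.59) and Rassf2 (0.60) followed, with DMSO values between -0.22 and -0.06. The Rassf2 interaction of 0.80 (edgeR adjusted p = 0.033) was lost when any of several single libraries was left out.

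The largest differences under MK-8722 were in genes of positional and tissue identity and were there in DMSO. Hoxb2, Hoxb7 and Hoxb8, homeobox genes of positional identity, had 0 counts in all 4 WT libraries and 22.8 to 25.8, 14.2 to 16.4 and 16.9 to 19.8 CPM in KO, so they were at least 207-fold, 133-fold and 158-fold higher in KO when the WT group was set to a floor of 3 counts per library. The same floor put the cadherin gene Cdh6 at least 821-fold higher in MK-8722, with DMSO means of 73.8 CPM in KO and 0.00785 in WT, the prostaglandin E synthase gene Ptges at least 142-fold, Gpr149 at least 99.7-fold and Cntnap4 at least 89.3-fold. The opposite held for genes of the distal limb. Pitx1, the hindlimb factor, was at 72.6, 71.5, 79.8 and 84.3 CPM in WT and had 1 count in each KO library, a ratio of 2490 (95% counting interval 971 to 9130). Hoxd13 and Hoxa13 were 1670 (571 to 8090) and 1500 (268 to 59200) times higher in WT. Sulf1, a heparan sulfatase, was higher in WT by 2840 (1220 to 8740) and the choline transporter gene Slc5a7 by 5340 (959 to 211000). Gfra2 was higher in KO by 2280 (630 to 18800), and Cyba, the small subunit of the phagocyte oxidase, was at 71.7 to 73.2 CPM in WT and 0.0323 to 0.361 in KO. Of the 16 genes chosen for the size of the difference, 8 in each direction, Cntnap4 alone had a called interaction (edgeR adjusted p = 0.037).

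**Figure D5:**
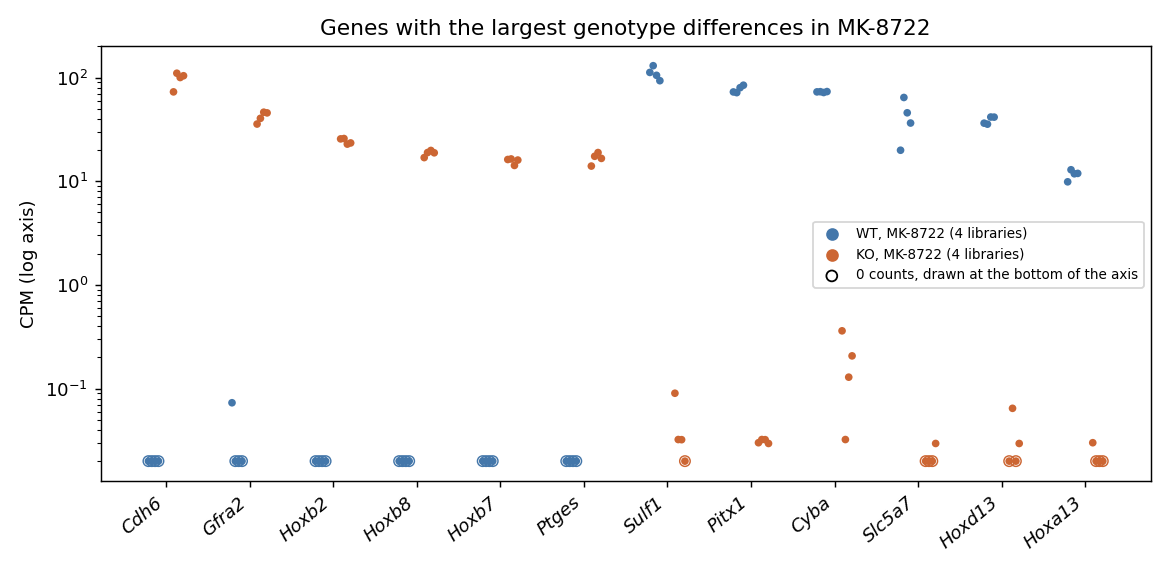
Points are single MK-8722 libraries of WT and KO for the genes with the largest differences, in CPM on a log axis, with open rings at the bottom for libraries with 0 counts. The HOXB genes, Cdh6 and Ptges are at 0 in all 4 WT libraries, while Pitx1 is at 71.5 to 84.3 CPM in WT and at 0.0323 CPM or less in KO.

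The other lists mostly repeated what DMSO showed. Over all autosomal genes tested, 31.8% were higher in KO and 27.1% lower under MK-8722. Of 36 HOX and regional identity factors, 15 were higher and 19 lower in KO under MK-8722, and 15 and 18 in DMSO. When only genes with at least 10 counts in every library were kept, 3 and 9 remained called. Collagen chains had 7 higher and 10 lower of 20, led by Col1a2 (-6.72) and Col7a1, an anchoring collagen at 19.1 to 32.2 CPM in WT and 218 to 289 in KO. Matrix proteases and inhibitors had 7 higher and 13 lower of 23, with the gelatinase genes apart, as Mmp2 was at 234 to 317 CPM in WT and 2.07 to 4.42 in KO and Mmp9 at 0.0731 to 0.234 and 14.5 to 20.2. Of 18 contractile genes 12 were lower and 4 higher. Tagln, an actin-binding protein of smooth muscle, was at 725 to 1080 CPM in WT and 16.6 to 24.5 in KO. Each of these counts was within 2 genes of that in DMSO, and the interaction passed for 2 of the HOX and regional factors, 1 collagen, 5 proteases and inhibitors and 1 contractile gene.

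Interferon-stimulated and antigen presentation genes were higher in KO in 18 of 31 cases and lower in 7, against 21 and 4 in DMSO, with a negative interaction in 5. The immunoproteasome gene Psmb8 was at 0.818 to 1.26 CPM in WT and 38.8 to 60.4 in KO, and Nlrc5, the activator of class I genes, differed by 4.92 in MK-8722 and 6.02 in DMSO. Of 20 p53 pathway genes 13 were lower and 3 higher, against 15 and 1 in DMSO. Perp, an apoptosis effector at cell junctions, was at 27.9 to 38.9 CPM in WT and 0.918 to 1.61 in KO, and Trp53 itself at 344, 276, 271 and 270 against 342, 386, 358 and 357 CPM. The Trp53 groups overlapped through the passage 12 library, and its difference of 0.31 was 0.05 and no longer called after removal of the GC content and length trend. DNA replication and mitosis genes had 11 higher and 4 lower of 33, and 13 and 1 in DMSO. Over all autosomal genes tested under MK-8722, 31.8% were higher and 27.1% lower, so the 11 higher members were near the common share. The lower members were 7 without the WT MK-8722 library at passage 13. Ccne1, which encodes cyclin E1, was at 10.7 to 13.7 CPM in WT and 42.6 to 51.4 in KO (1.99, and 1.31 in DMSO), and the mitotic checkpoint kinase gene Bub1 at 117 to 131 and 76.3 to 86.5 (-0.60 and -0.24).

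Antioxidant genes regulated by NRF2 were higher in KO in 11 of 20 cases and lower in 5, against 8 and 3 in DMSO, with a positive interaction in 4, and 7 were higher after removal of the GC content and length trend. Nqo1, a quinone reductase, was at 2.49 to 4.29 CPM in WT and 14.2 to 15.5 in KO (2.03 and 1.87), and Nfe2l2, which encodes NRF2, differed by 0.61 and 0.31. Of 24 glycolysis and glucose uptake genes 6 were higher and 7 lower, against 9 and 7 in DMSO, and 11 were lower after that removal. The 6 and 7 were not far from the shares over all autosomal genes tested, 31.8% higher and 27.1% lower. The pyruvate dehydrogenase kinase gene Pdk1 was at 18.4 to 23.1 CPM in WT and 3.29 to 5.75 in KO (-2.25 and -1.58), and the phosphofructokinase gene Pfkp at 42.3 to 52.9 and 101 to 110 (1.16 and 1.08). Imprinted genes had 7 higher and 10 lower of 19, and 6 and 9 in DMSO. Igf2, the fetal growth factor, was at 11.7 to 21.8 CPM in WT and 0.678 to 3.37 in KO.

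The KO against WT difference in MK-8722 was also set against that in torin1, and differed for 3487 genes, 22.8% of those tested, with 1437 positive (9.41%) and 2050 negative (13.4%). This split turned to 2069 against 1462 when only the libraries compared were fitted, and the positive count was 2252 without the WT MK-8722 library at passage 12. Of the 584 genes that appeared with the activator, 458 were also called here in the same direction, 294 of them lower in KO and 164 higher. The MK-8722 libraries enter both comparisons, so the overlap follows in part from shared data and is no separate evidence. In torin1 the Hexa means were 59.4 ± 3.34 CPM in WT and 59.7 ± 9.93 in KO, and those of Flcn 49.0 ± 2.88 and 52.0 ± 8.17 (SD, n = 4). Uap1l1 was at 80.6 ± 12.5 and 82.1 ± 17.2 CPM. Pde4b and Klf2 differed from torin1 to MK-8722 by 4.12 (edgeR adjusted p = 1.3e-13, SE 0.17) and by 3.28 (edgeR adjusted p = 3.2e-09, SE 0.26). The torin1 means of Sesn2 were 9.42 ± 1.29 CPM in WT and 19.7 ± 1.46 in KO, and its genotype difference from torin1 to MK-8722 changed by 0.17 (SE 0.19, edgeR adjusted p = 0.56), so it was not called.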

How the data were processed

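Total poly(A) RNA of 24 MEF cultures was sequenced as paired reads. Per the labels and the methods of the study, the authors aligned reads to GRCm38 with STAR and quantified genes with Salmon within the nf-core/rnaseq workflow, and they deposited estimated counts per gene, not normalised. The authors' counts are sums over transcripts that share reads, so genes with near-identical copies are less certain. All sample columns of the gene table were mapped to samples, and the transcript-level counts served only to weight transcripts for the GC content and length trend.

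Estimated counts were rounded to whole numbers, filtered with edgeR's filterByExpr, scaled by TMM and fitted with edgeR 4.0.16 (R 4.3.3) as 6 group means over all 24 libraries. P-values of the quasi-likelihood test were adjusted by Benjamini-Hochberg across all 15828 genes that passed the filter. Calls required an adjusted p below 0.05 together with a 1.2-fold change or more. CPM are counts per 1000000 of TMM-scaled library size. TMM factors were 0.926 to 0.947 for the WT and 1.003 to 1.04 for the KO libraries in MK-8722, and the common biological coefficient of variation was 0.079. Totals of 26900240 to 33467698 counts a library bound the precision of low genes. Replicates differed by 4.17 to 35.4 in chi-square per degree of freedom, so none was counted as a duplicate. Counting intervals are exact at 95% and, like the floor of 3 counts, cover counting error only.

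Named genes were Prkaa1, Prkaa2, Hexa, Ctsa, Flcn, Fnip1 and Tfeb, then the protein-coding genes with no overlap and a mean of at least 5 CPM that had the 8 largest differences in each direction, the 8 largest interactions in each direction among genes that appeared with the activator, 4 in each direction among genes that turned or were lost (no overlap in DMSO), and up to 2 members of each list in each direction. Further members of the lists are named as examples and were chosen after their values were seen, and a few genes are not reported here. The lists cover AMPK subunits, lysosomal hydrolases, lysosomal membrane proteins, V-ATPase, autophagy, FLCN and Rag genes, cAMP and immediate early genes, ATF4, cholesterol, fatty acids, glycolysis, NRF2, collagens, matrix proteases, contractile genes, replication and mitosis, p53, interferon, HOX, imprinted genes, and markers of 8 cell types. The comparison and the lists were chosen with earlier results of these data known.

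Alternatives were other size factors, library size alone, no filter, at least 10 counts in every library, DESeq2 1.42.0, only the libraries compared, other fold minimums, removal of a trend with GC content and transcript length (mgcv 1.9.3), blocks and leaving out each library. Same-passage libraries of a line deviated together across treatments (r of 0.212 to 0.717 in 16 pairs), so passage, which the labels give, pairs samples within a genotype. It cannot pair WT with KO. Positions are GENCODE M21 on GRCm38. The test was tried on simulated data with 200 changed genes.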

Additional observations from a re-analysis of the deposited data

Results flagged for a closer look

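The genotype difference itself differed between DMSO and MK-8722, by edgeR's interaction test with an adjusted p under 0.05 and at least a 1.2-fold change, for 49 of the named genes. The log2 interactions were negative for Gpnmb (-3.59), Gfra1 (-2.36), Crebrf (-2.2), Uap1l1 (-2.02), Slc27a1 (-1.98), Klhl24 (-1.93), Eno2 (-1.77), Ctns (-1.7), Ifit1 (-1.6), Insig1 (-1.6), Klhl30 (-1.59), Tmem158 (-1.37), Hexa (-1.33), Timp3 (-1.31), Atp6v0b (-1.28), Fnip1 (-1.27), Flcn (-1.11), Npc1 (-1.1), Fnip2 (-1.0), Ctsa (-0.94), Pmaip1 (-0.94), Atp6v1h (-0.88), Optn (-0.82), Perp (-0.82), Pdk1 (-0.67), Stat2 (-0.67), Ctsf (-0.63), Rb1cc1 (-0.6), Ulk2 (-0.36) and Bub1 (-0.36). They were positive for Pde4b (3.69), Klf2 (2.7), Rhob (1.58), Rbm47 (1.38), Ddit4 (1.35), Sema7a (1.25), Etv5 (1.1), Sesn2 (1.01), Tubb3 (0.96), Bcat1 (0.83), Glipr2 (0.81), Rassf2 (0.8), Sipa1l2 (0.8), Ccne1 (0.68), Peg12 (0.61), Osgin1 (0.41), Trp53 (0.32) and Tyms (0.32). That of Cntnap4 (4.17) is a fitted value that depends on the prior count, since its WT libraries in MK-8722 are all at 0.

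In 24 of 205 groups of 4 libraries, over 106 genes, 1 library lay far from the other 3 of its group by Dixon's 95% criterion, where chance gives about 1 in 20 groups. The WT library at passage 12 held 10 of these: Sesn2 (78.6 CPM), Gfra1 (15.8), Slc7a11 (28.6), Scd2 (628), Cdkn1a (60.6) and Trp53 (344) among them, with Rassf2 (3.03), Pfkfb4 (5.63), Ccne1 (13.7) and Gfra2 (0.0731). The WT library at passage 13 held 4, in Ctsf (2.49), Idua (8.49), Ulk2 (47.8) and Myl9 (49.6). In the KO libraries the values that stood apart were Hoxa13 (0.0301), Rhob (73.1), Col1a2 (38.7) and Igf2 (3.37) at passage 16, Cntnap4 (11.6) and Adam19 (3.0) at passage 17, Tnfrsf11b (0.29), Klf2 (16.2) and Kif20a (207) at passage 18, and Slc5a7 (0.0296) at passage 19. Those of Gfra2, Hoxa13 and Slc5a7 are 1 or 2 counts beside 0.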

How the results depend on the processing

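At a fold minimum of 1.5, 2385 genes were lower in KO in MK-8722 and 2001 in DMSO, the interaction kept 211 positive and 445 negative genes, the change from torin1 587 and 756, and 61 genes higher and 174 lower in KO had appeared with the activator. A test against a fold change of 1.2 gave 108 and 377 for the interaction, 538 and 964 for the change from torin1, and 40 and 162 for genes that appeared. When single libraries were left out, the count of positive changes from torin1 ranged from 1339 to 2252, the highest without the WT library at passage 12. The other ranges were 4579 to 4899 genes higher and 4131 to 4365 lower in MK-8722, 637 to 1019 and 1007 to 1309 for the interaction, and 179 to 336 and 316 to 403 for genes that appeared. The split of changes from torin1 turned to 1872 against 1554 with at least 10 counts in every library and to 2069 against 1462 with only the libraries compared. DESeq2 called 4833 genes higher and 4054 lower in MK-8722. With the replicate number as a block the counts were 4840 and 4130, with 782 and 1152 for the interaction; same-numbered WT and KO libraries in MK-8722 had r of 0.0255 to 0.269, so they share only a number. With passage as a block the interaction was called in 1167 and 1530 genes. With the GC content and length trend removed, autophagy genes higher in KO fell to 4, cAMP genes to 5, NRF2 genes to 7 and p53 genes to 1, glycolysis genes lower rose to 11, and the calls of Trp53 (0.05), Cdkn1a (0.42), Tm7sf2 (0.15) and Peg12 (0.15) ended. Without the KO MK-8722 library at passage 16, 5 autophagy genes were higher. Of 2852 recomputed values of 107 named genes, 2823 kept direction and side of the threshold, 23 lost a call, 6 gained one and 0 reversed. The cause of these shifts was not tested. Depth limits statements on genes near 0 counts, such as HOXB genes in WT.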
